A study of Mus musculus with 35 samples.

Results

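The interferon-stimulated genes were followed in RNA-seq of mouse hematopoietic stem/progenitor cells (HSPCs) with and without the histone demethylase JMJD1B, which the Kdm3b gene encodes. Members were chosen by gene name, with earlier results of these data known. The names were those of the Ifi, Ifit, Ifitm, Ifnar, Ifngr, Oas, Gbp, Irf, Irgm, Isg and Trim30 families, with single genes such as Stat2, Mx1, Rsad2, Bst2, Ddx58, Parp14 and Zbp1. The name pattern found 74 genes, of which Irf8 was left out by the rule, so that 73 of the 11982 genes in the expression table were members. The members hold the interferon receptors and signalling factors as well as their targets, and a few genes that only share a name with them. All 73 had a mean of at least 0.5 RPKM (read number scaled by transcript length and by library size) over the 4 libraries and entered the test, among 11863 genes tested.

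The study removed JMJD1B from mice to learn which genes need its demethylase activity. RNA was sequenced from bone marrow HSPCs of wild type (WT) mice and of JMJD1B-/- mice, with 2 biological replicates per genotype, and no interferon or other stimulus is named in the labels. Both groups carry the strain label 129P2xC57BL/6J. The knockout is a gene trap made in embryonic stem cells of the first strain in that label, so that effects of the trapped allele and of linked DNA of that strain cannot be told apart, and the study used adult mice of both sexes.

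Interferons are secreted alarm signals of infection. Type I interferons bind the IFNAR1-IFNAR2 receptor and interferon gamma binds IFNGR1-IFNGR2, and both switch on JAK kinases that activate STAT proteins, which turn on a large set of antiviral, antigen-processing and guard GTPase genes. Stem cells of the blood keep some of these genes on without infection, and interferon can drive resting stem cells into division.

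The 4 libraries differed in depth. Estimated totals were 17500000 and 24600000 reads in WT replicates 1 and 2 and 6100000 and 21000000 reads in JMJD1B-/- replicates 1 and 2, an order of libraries kept throughout. A transcript of 1 kb covered by 3 reads stands at 0.171 and 0.122 RPKM in WT cells and at 0.491 and 0.143 RPKM in JMJD1B-/- cells. The total of JMJD1B-/- replicate 1 was divided by 2 because 14% of its inferred read numbers were odd, against 54.3% or more in the other libraries, so its floor and read numbers rest on that step. With the fewest reads, it is the least precise for weakly expressed members.

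Kdm3b, read first as a check of the genotype labels, stood at 30.98 and 24.3 RPKM in WT cells and at 3.996 and 4.63 RPKM in JMJD1B-/- cells. Its group means were 27.6 ± 4.73 RPKM and 4.31 ± 0.447 RPKM (SD, n = 2 each), and it fell in both JMJD1B-/- libraries, with a log2 fold change of −2.65 ± 0.24 (SE; limma, adjusted p = 0.0314). The adjusted limma p was 0.796 without WT replicate 1, the highest of the 14 alternatives tried, and 0.619 without WT replicate 2, with log2 fold changes of −2.47 and −2.82. Stem and progenitor markers were present in every library, with all 15 of 15 listed genes found and sums of 376 and 353 RPKM in WT and 229 and 273 RPKM in JMJD1B-/- cells, 7 of the 15 being lower at an unadjusted p under 0.05. Kit, the receptor tyrosine kinase of these cells and the most abundant of the 15, stood at 66.9 and 62.5 RPKM in WT and 51.6 and 92.7 RPKM in JMJD1B-/- cells.

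Some libraries stood apart in ways that the genotype labels do not define. Xist, the RNA that silences an X chromosome in females, stood at 332 RPKM in WT replicate 2 and at no more than 0.051 RPKM in the other 3 libraries, while Ddx3y of the Y chromosome stood at 0.411 RPKM in WT replicate 2 and between 25.5 and 29.3 RPKM in the others. The labels give no sex. Both JMJD1B-/- libraries had the pattern of WT replicate 1, so this pattern is partly confounded with genotype. Its part in the members' levels was not tested. T and NK cell markers were high in JMJD1B-/- replicate 1, where the 19 of 21 genes found summed to 147 RPKM, against 38.3 and 57.99 RPKM in WT cells and 28.4 RPKM in JMJD1B-/- replicate 2. In JMJD1B-/- replicate 1 the most abundant of them, Il7r, stood at 39.4 RPKM and the T cell receptor subunit gene Cd3g at 11.7 RPKM. In bulk RNA, fewer cells of a type and less RNA per cell cannot be told apart, for these markers as for the members.

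Across the members, levels were modest and more often lower than higher in JMJD1B-/- HSPCs. Mean levels ran from 0.752 RPKM for Ifit3 to 47.97 RPKM for Ifngr1, with 5 members under 1 RPKM and 24 over 10 RPKM. The 73 members summed to 682 and 717 RPKM in WT cells and to 584 and 583 RPKM in JMJD1B-/- cells. In 58 members (79.5%) the log2 fold change was negative, against 53% of all genes tested, and the median was −0.37 against −0.02 over all genes. With quantile normalization, which makes the 4 distributions alike, the members' median was −0.16 and that of all genes 0.02.

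Gene by gene, 10 of the 73 members (13.7%) were lower in JMJD1B-/- cells at an unadjusted p under 0.05, against 6.33% of all genes tested. These were Ifitm1, Trim30a, Irf1, Gbp1, Ifi30, Gbp3, Ifi27l1, Oas1a, Ifit1 and Oas1g, of which Ifit1 is in the table only through its WT libraries. The count was 5 without WT replicate 1, 4 without WT replicate 2, 18 without JMJD1B-/- replicate 1 and 17 without JMJD1B-/- replicate 2, where the shares of all genes were 1.49%, 2.29%, 11% and 15.3%. Isg20 was the 1 member (1.37%) that was higher, against 3.81% of all genes, and this count was 0 without WT replicate 1, 1 without WT replicate 2, 2 without JMJD1B-/- replicate 1 and 10 without JMJD1B-/- replicate 2. These are 0%, 1.37%, 2.74% and 13.7% of the members, against 1.04%, 2.11%, 10.6% and 6.13% of all genes, so that without JMJD1B-/- replicate 2 the members were higher more often than all genes. None of the 73 passed an adjusted p of 0.05 in limma, against 5 of all genes tested (0.0421%), the lowest adjusted p of a member being 0.187, for Trim30a. A gene-by-gene equal-variance test gave 0 members past an adjusted p of 0.05, 4 lower (5.48%) and 0 higher at an unadjusted p under 0.05, against 0 past the adjusted p, 4.32% lower and 2.93% higher among all genes. Of the 14 alternatives tried, the unadjusted p was under 0.05 in the same direction in 14 for Trim30a, 13 for Ifitm1 and Gbp1, 12 for Gbp3, Ifi30, Irf1 and Isg20, 10 for Ifi27l1, 9 for Oas1g, 8 for Oas1a and 7 for Ifit1. With a mean under 1 RPKM, Ifit1 was not tested under the filter of at least 1 RPKM, which counts here as without the call. With limma, leaving out JMJD1B-/- replicate 1 gave 7 members past the adjusted p and leaving out JMJD1B-/- replicate 2 gave 12 (630 and 669 of all genes), where the lone remaining library is assumed to vary like the others.

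The groups did not overlap for 32 members. In 29 (39.7%) both JMJD1B-/- libraries were below both WT libraries, a share that was 22.7% among all genes tested. In 3 (4.11%) both were above, namely Ifit2, Isg20 and Isg20l2, against 20.1% of all genes. Groups overlapped for the other 41 members. Of the 29, Ifit1 and Mx1 reached the table's minimum of 1 RPKM in WT libraries only, Mx1 being named after its values were seen. With 1 library left out, 3 values separate more easily, so those counts cannot be set against 29 and 3. Without JMJD1B-/- replicate 1, for example, 71.2% of the members had the lower values in JMJD1B-/- cells and 12.3% the higher, against 33.2% and 46.5% of all genes, and without JMJD1B-/- replicate 2 it was 54.8% and 23.3% against 49% and 29.6%. With 2 libraries per genotype the smallest two-sided p of an exact permutation test is 0.333, so that no single gene can reach 0.05 by it.

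Members of middle abundance were most often lower. In ranges of mean RPKM that were chosen after the data were seen, 16 of the 28 members between 2 and 10 RPKM (57.1%) had both JMJD1B-/- libraries below both WT libraries, against 25.4% of all 4089 genes in that range. At 10 RPKM or more it was 9 of 24 members (37.5%) against 18.5% of 6093 genes. Between 0.5 and 2 RPKM it was 4 of 21 members (19%) against 31.5% of 1681 genes, so that the weakest members lay below the share of their range. The median log2 fold changes of the members were −0.22, −0.46 and −0.11 from the weakest to the strongest range, and those of all genes −0.34, −0.09 and 0.04. With quantile normalization the members' medians were 0.12, −0.34 and −0.12, so the median of the weakest range turned positive.

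**Figure D1:**
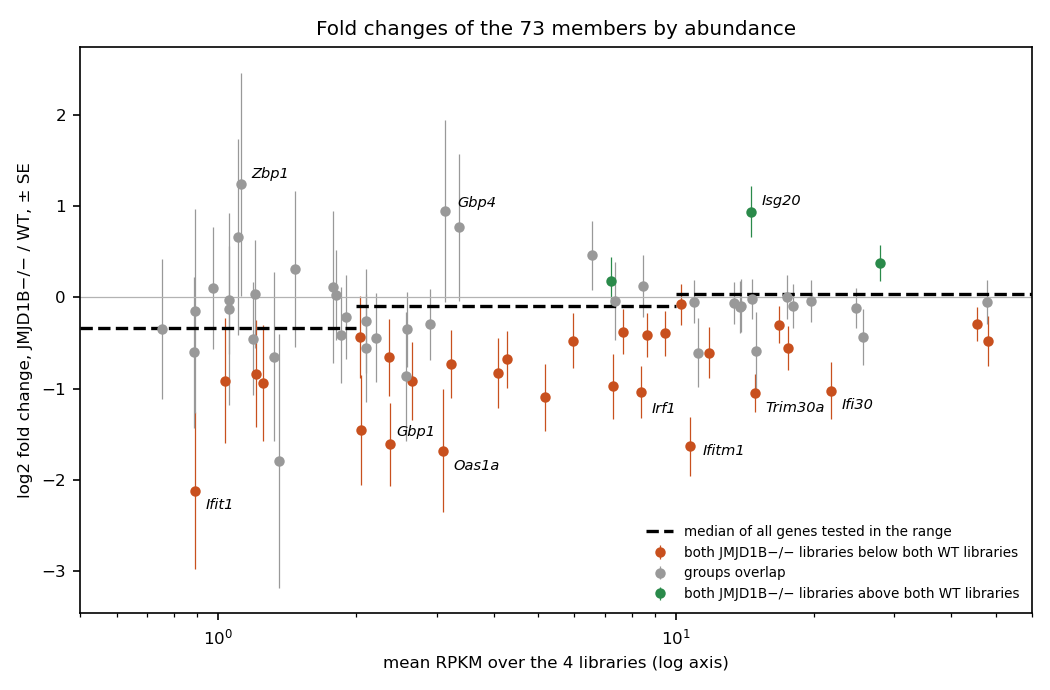
Log2 fold change (JMJD1B-/- over WT, with its SE) of each of the 73 members against its mean RPKM over the 4 libraries, on a log axis, colored by whether the genotypes overlap. Dashed lines give the median of all genes tested in each range (−0.34, −0.09 and 0.04); 29 members are orange (both JMJD1B-/- libraries below), 3 green (both above) and 41 grey (overlapping).

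The 4 receptor genes all had a negative log2 fold change and both JMJD1B-/- libraries below both WT libraries, as 53% and 22.7% of all genes did. With all 4 libraries in the trended limma fit to the authors' RPKM none had an unadjusted p under 0.05. With replicates of the same number taken as a block, Ifnar2 and Ifngr1 did (limma, unadjusted p = 0.0241 for each). Ifnar1 and Ifnar2 encode the chains of the type I interferon receptor. Ifnar1 stood at 9.29 and 10.4 RPKM in WT cells and 8.05 and 6.75 RPKM in JMJD1B-/- cells, a log2 fold change of −0.41 ± 0.25 (SE; limma, adjusted p = 0.612). For Ifnar2 the levels were 17.7 and 24.3 RPKM against 12.7 and 15.6 RPKM (−0.56 ± 0.24; unadjusted p = 0.0531, and 0.0419 with median-ratio scaling or 0.0366 with quantile normalization). Its log2 fold change was −0.33 without WT replicate 2 and −0.78 without WT replicate 1. Both genes were highest in WT replicate 2, and neither overlapped between genotypes. Ifngr1 and Ifngr2 encode the interferon gamma receptor. Ifngr1, the most abundant of all members, stood at 52.7 and 57.3 RPKM in WT and at 29.6 and 52.2 RPKM in JMJD1B-/- cells (−0.48 ± 0.27; unadjusted p = 0.119). Its JMJD1B-/- replicate 2 lay just under WT replicate 1. The log2 fold change was −0.07 with JMJD1B-/- replicate 1 left out, against −0.89 without JMJD1B-/- replicate 2. Ifngr2, a weaker gene, stood at 4.81 and 5.76 RPKM against 3.15 and 3.35 RPKM, with the JMJD1B-/- libraries close together and below both WT libraries (−0.68 ± 0.31; unadjusted p = 0.0637, and 0.0305 in limma without a trend). Ifnar2, Ifnar1 and Ifngr2 lie within 5 genes of each other on chromosome 16, and Ifngr1 lies apart from them.

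Stat2 and the Irf factors, 8 genes that relay or shape the signal, all had a negative log2 fold change, with a median of −0.47, and 1 of them, Irf1, was lower at an unadjusted p under 0.05, against 6.33% of all genes. In 4 of the 8 both JMJD1B-/- libraries were below both WT libraries, against 22.7% of all genes. Irf1, a factor that interferon gamma induces and that activates many of its targets, stood at 10.4 and 12.2 RPKM in WT cells and at 6.503 and 4.51 RPKM in JMJD1B-/- cells. Its log2 fold change was −1.04 ± 0.28 (SE; limma, unadjusted p = 0.00708, adjusted p = 0.32), both JMJD1B-/- libraries were below both WT libraries, and the unadjusted p was not under 0.05 without WT replicate 2, where the log2 fold change was −0.92. Irf2, which binds the same sites as IRF1 and opposes it at many promoters, stood at 18.01 and 18.98 RPKM against 14.2 and 15.9 RPKM (−0.30 ± 0.20; unadjusted p = 0.179), again without overlap. Irf5, a driver of inflammatory cytokines in myeloid cells, stood at 3.99 and 2.97 RPKM in WT and 2.23 and 1.41 RPKM in JMJD1B-/- cells (−0.91 ± 0.43; unadjusted p = 0.0687). All 3 were thus lower in both JMJD1B-/- libraries, Irf2 by the least.

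Stat2 and Irf9, whose products carry the type I signal to the genome, differed little between genotypes. Stat2 was nearly even at 10.3 and 10.9 RPKM against 9.99 and 10.02 RPKM (−0.08 ± 0.22; unadjusted p = 0.736), although its groups did not overlap. Irf9 stood at 11.03 and 17.9 RPKM against 11.6 and 14.7 RPKM, with overlapping groups and a log2 fold change of −0.10 ± 0.29 that turned positive without WT replicate 2 (0.24) or JMJD1B-/- replicate 1 (0.07).

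Irf3 and Irf7, which turn on the interferon genes themselves after a virus is sensed, overlapped between genotypes. Irf3 stood at 17.4 and 16.9 RPKM in WT cells and at 6.85 and 18.8 RPKM in JMJD1B-/- cells, low in JMJD1B-/- replicate 1 alone. Its log2 fold change of −0.59 ± 0.43 was 0.13 without that library. Irf7 was weaker, at 2.61 and 3.18 RPKM against 1.84 and 2.72 RPKM (−0.35 ± 0.41; unadjusted p = 0.418). Irf4, a lymphoid and dendritic cell factor, stood at 0.662 and 2.55 RPKM against 1.73 and 0.346 RPKM, and its replicates differed by more than its genotypes did (−0.65 ± 0.93; 0.25 without WT replicate 2 and 0.37 without JMJD1B-/- replicate 2). The IRF2-binding proteins are corepressors that partner IRF2 and are members by name only. Irf2bp2 stood at 55.4 and 44.9 RPKM in WT and 41.5 and 39.9 RPKM in JMJD1B-/- cells (−0.29 ± 0.19; unadjusted p = 0.16), lower in both. Irf2bp1 stood at 9.48 and 6.602 RPKM against 6.55 and 11.3 RPKM, with overlapping groups (0.12 ± 0.34), and turned negative without WT replicate 2 (−0.14) or JMJD1B-/- replicate 2 (−0.27).

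Of the 7 sensors of RNA and DNA, none was lower or higher at an unadjusted p under 0.05, and 2 had both JMJD1B-/- libraries below both WT libraries (Ddx58, which encodes RIG-I, and Ifi204), a share of 28.6% near the 22.7% of all genes. The median log2 fold change was −0.48. Ifi203, of the p200 family of DNA-binding proteins, stood at 29.4 and 28.2 RPKM in WT and 29.8 and 15.2 RPKM in JMJD1B-/- cells, so that it was low in JMJD1B-/- replicate 2 alone (−0.43 ± 0.31; 0.05 without that library). Eif2ak2, whose product PKR halts translation on double-stranded RNA, was even, at 15.6 and 19.1 RPKM against 14.6 and 20.6 RPKM (0.00 ± 0.24), and its sign turned without WT replicate 1 (−0.14) or JMJD1B-/- replicate 2 (−0.24). Zbp1, a sensor of left-handed nucleic acid that can trigger cell death, stood at 0.106 and 1.13 RPKM in WT and 2.88 and 0.373 RPKM in JMJD1B-/- cells. It was high in JMJD1B-/- replicate 1 alone, the library with the most T and NK cell marker RNA, and its log2 fold change of 1.24 ± 1.22 turned to −0.09 without it and to −0.05 without WT replicate 1. Among the sensors named here after their values were seen, Dhx58, which encodes LGP2, was low in JMJD1B-/- replicate 1 alone, at 2.48 and 3.62 RPKM in WT and 0.705 and 3.501 RPKM in JMJD1B-/- cells.

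**Figure D2:**
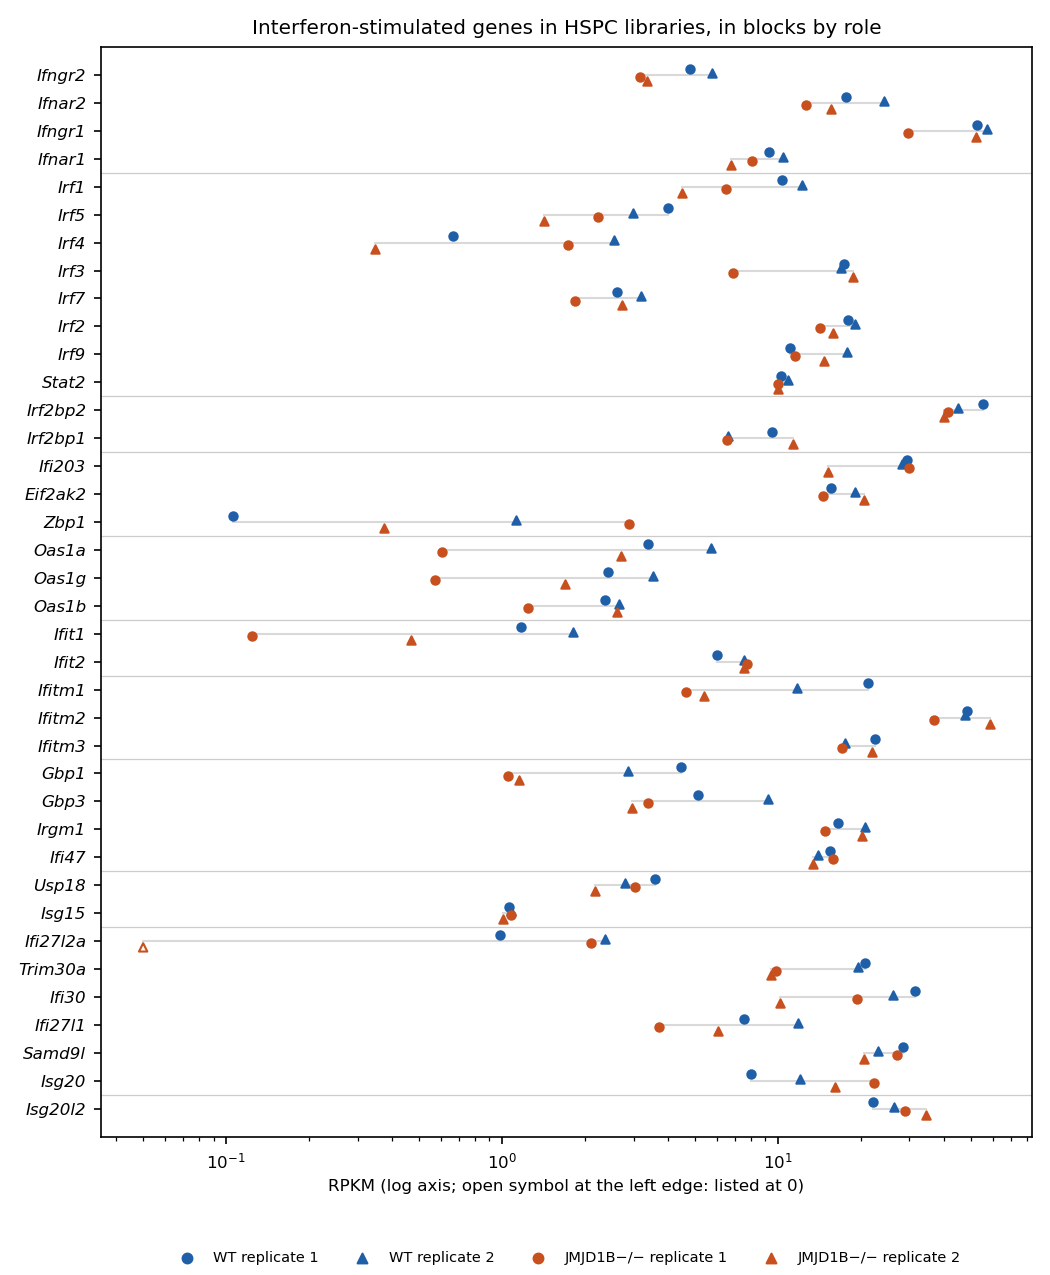
Level of the 38 members described in each of the 4 HSPC libraries, in RPKM on a log axis, with 1 line per gene, blocks by role, blue for WT, orange for JMJD1B-/-, circles for replicate 1 and triangles for replicate 2. Trim30a, Ifitm1, Gbp1 and the 4 receptors show both orange symbols left of both blue ones, Isg20 shows them to the right, and the open symbol marks Ifi27l2a, listed at 0 in JMJD1B-/- replicate 2 and drawn at the left edge.

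The OAS enzymes make short adenylate chains that switch on RNase L. Of the 7 members of this family, 2 (28.6%) were lower at an unadjusted p under 0.05, against 6.33% of all genes, and the other 5 overlapped between genotypes. The same 2 had no overlap, a share near the 22.7% of all genes with both JMJD1B-/- libraries below. Oas1a stood at 3.38 and 5.74 RPKM in WT and 0.605 and 2.69 RPKM in JMJD1B-/- cells, a log2 fold change of −1.68 ± 0.67 (SE; limma, unadjusted p = 0.0396, adjusted p = 0.477). Oas1g stood at 2.42 and 3.53 RPKM against 0.573 and 1.698 RPKM, a log2 fold change of −1.46 ± 0.60 (unadjusted p = 0.045). Both genes were lowest in JMJD1B-/- replicate 1 and highest in WT replicate 2. Without JMJD1B-/- replicate 1 the log2 fold changes were −0.69 and −0.75 and neither p was under 0.05. Neither p was under 0.05 without WT replicate 1 or WT replicate 2 either, where Oas1a had log2 fold changes of −2.06 and −1.31 and Oas1g of −1.72 and −1.19. Without JMJD1B-/- replicate 2 the log2 fold changes were −2.68 for Oas1a and −2.17 for Oas1g. With quantile normalization neither p was under 0.05. Oas1b, a transcribed pseudogene in the reference annotation, stood at 2.36 and 2.64 RPKM against 1.24 and 2.62 RPKM, low in JMJD1B-/- replicate 1 alone (−0.44 ± 0.49; 0.07 without that library). The Oas1 copies are near-identical in part, as are the Gbp copies, Trim30a and Trim30d, and the Ifi203 to Ifi205 genes, so the RPKM of each copy is uncertain where reads fit several.

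The 3 IFIT genes, whose proteins bind foreign RNA, went separate ways although they lie within 5 genes on chromosome 19. Ifit1 stood at 1.17 and 1.803 RPKM in WT and 0.124 and 0.469 RPKM in JMJD1B-/- cells, lower in both (−2.12 ± 0.86; limma, unadjusted p = 0.0419, adjusted p = 0.48). Ifit1 is in the table only because its WT libraries reach 1 RPKM, so the group where it is high selected it. Its 0.124 RPKM in JMJD1B-/- replicate 1 is under the 0.491 RPKM of a 1 kb transcript with 3 reads there. Its log2 fold change depends on the constant added before the logarithm. The value was −0.94 with 1 added and −2.53 with 0.01 added (limma, unadjusted p = 0.0511 for the latter), and −1.40 with quantile normalization. Its p was not under 0.05 with quantile normalization, nor without WT replicate 1 or WT replicate 2, where the log2 fold changes were −2.41 and −1.83. Ifit2, the strongest of the 3, stood at 6.003 and 7.54 RPKM against 7.71 and 7.54 RPKM, both JMJD1B-/- libraries being barely above WT replicate 2 (0.18 ± 0.26; unadjusted p = 0.515), and its groups overlapped with median-ratio scaling or quantile normalization. Ifit3 overlapped at a mean of 0.752 RPKM, and the median of the 3 turned from −0.34 to 0.16 with quantile normalization.

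The IFITM proteins sit in membranes and block virus entry, and are known to be made in stem cells without infection. Ifitm1, with the lowest unadjusted p of the members after Trim30a, stood at 21.2 and 11.7 RPKM in WT and 4.66 and 5.403 RPKM in JMJD1B-/- cells. Its log2 fold change was −1.63 ± 0.32 (SE; limma, unadjusted p = 0.00129, adjusted p = 0.196), and the unadjusted p was under 0.05 without each of the 4 libraries in turn, at log2 fold changes between −2.06 and −1.21. The WT libraries themselves differed, replicate 1 being the higher. Ifitm2 and Ifitm3, its neighbours on chromosome 7, were more abundant and overlapped. Ifitm2 stood at 48.6 and 47.6 RPKM in WT and 36.9 and 58.6 RPKM in JMJD1B-/- cells (−0.05 ± 0.24), with the JMJD1B-/- libraries on either side of WT and a log2 fold change of 0.28 without JMJD1B-/- replicate 1. Ifitm3 stood at 22.5 and 17.6 RPKM against 17.1 and 21.9 RPKM (−0.04 ± 0.23), and turned positive without WT replicate 1 or JMJD1B-/- replicate 1 (0.14 in each case). The fourth member, Ifitm5, a gene of bone-forming cells, was lower in both JMJD1B-/- libraries at a mean of 1.25 RPKM.

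The 18 GTPases coat and break the vacuoles of intracellular microbes (GBP and IRG families) or trap viruses (Mx1 and Mx2). Of these, 2 were lower at an unadjusted p under 0.05, 5 had both JMJD1B-/- libraries below both WT libraries and 13 overlapped (11.1% and 27.8% for the first 2 counts, against 6.33% and 22.7% of all genes), with a median log2 fold change of −0.14 (−0.02 with quantile normalization). Gbp1 stood at 4.46 and 2.85 RPKM in WT and 1.05 and 1.15 RPKM in JMJD1B-/- cells (−1.61 ± 0.46; limma, unadjusted p = 0.00887, adjusted p = 0.336). Gbp3 stood at 5.14 and 9.19 RPKM against 3.38 and 2.95 RPKM (−1.10 ± 0.36; unadjusted p = 0.0183). For both the JMJD1B-/- libraries lay close together while the WT libraries differed, Gbp1 being higher in WT replicate 1 and Gbp3 in WT replicate 2. Gbp1 lost its unadjusted p under 0.05 without WT replicate 1 (−1.30), and Gbp3 without WT replicate 2 (−0.68). The most abundant GTPases of the family were even. Irgm1, which protects blood stem cells during infection, stood at 16.6 and 20.6 RPKM in WT and 14.8 and 20.2 RPKM in JMJD1B-/- cells (−0.10 ± 0.24), with a positive value without WT replicate 2 (0.06) or JMJD1B-/- replicate 1 (0.13). Ifi47 stood at 15.5 and 13.98 RPKM against 15.8 and 13.4 RPKM (−0.02 ± 0.21), with a positive value without WT replicate 1 (0.06) or JMJD1B-/- replicate 2 (0.10).

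The guanylate-binding protein genes lie on 2 chromosomes, and a difference between these groups was not tested. The 5 on chromosome 3 (Gbp5, Gbp7, Gbp3, Gbp1 and Gbp2) summed to 27.6 and 34.2 RPKM in WT and 22.6 and 20.3 RPKM in JMJD1B-/- cells. In 4 of these 5, against 22.7% of all genes, both JMJD1B-/- libraries were below both WT libraries, Gbp7 being the exception. The median log2 fold change of the 5 was −0.73, and only Gbp1 and Gbp3 had an unadjusted p under 0.05. With either scaling alternative it was 3 of 5, with medians of −0.72 and −0.51. The 6 on chromosome 5 (Gbp8, Gbp9, Gbp4, Gbp10, Gbp6 and Gbp11) summed to 4.94 and 9.26 RPKM in WT and 27.7 and 3.35 RPKM in JMJD1B-/- cells. All 6 were highest in JMJD1B-/- replicate 1 and lowest in JMJD1B-/- replicate 2, so that their groups overlapped. Gbp4, named after its values were seen, stood at 1.01 and 1.82 RPKM in WT and 8.91 and 0.779 RPKM in JMJD1B-/- cells. The T and NK cell markers stood in the same order of libraries, with sums of 38.3 and 57.99 RPKM in WT and 147 and 28.4 RPKM in JMJD1B-/- cells, and their part in these values was not tested. Ifng, the interferon gamma gene, which T and NK cells express, was also highest in JMJD1B-/- replicate 1, at 0 and 0.437 RPKM in WT and 2.16 and 0.126 RPKM in JMJD1B-/- cells, and was named after its values were seen. Of the 19 markers, none was at 0 in any library, 18 were highest in JMJD1B-/- replicate 1 and 15 stood there at over 2 times their level in each other library, as did 7 of the 73 members (9.59%) and 2.09% of all genes tested. The 7 were Gbp4, Gbp6, Gbp8, Gbp10, Gbp11, Oasl2 and Zbp1, named after their values were seen.

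**Figure D3:**
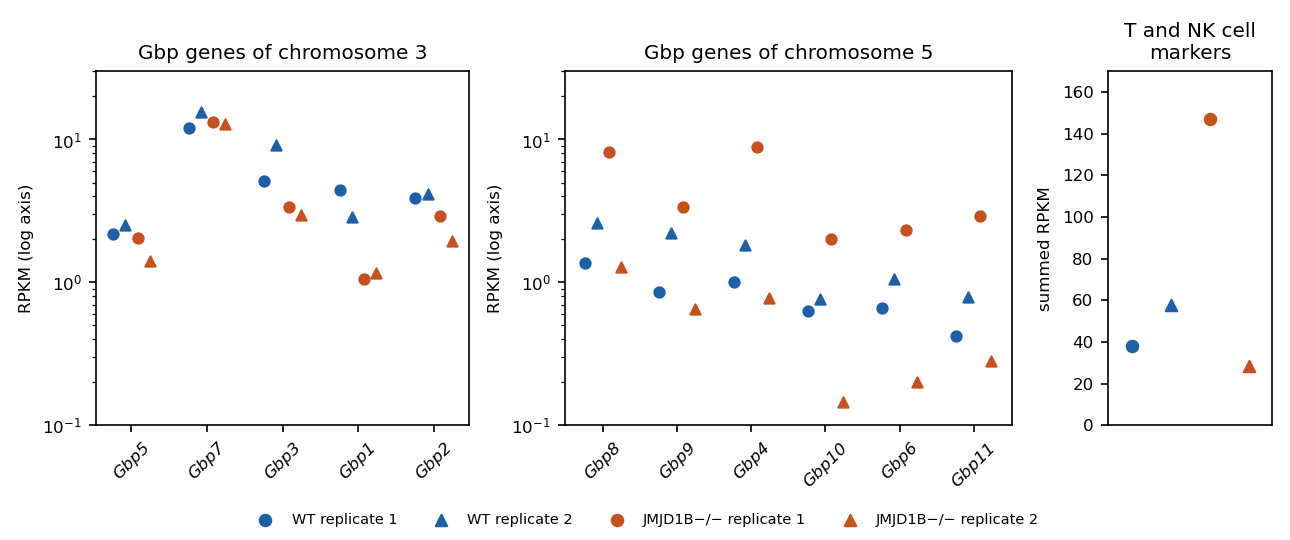
RPKM on a log axis of the 5 Gbp genes of chromosome 3 and the 6 of chromosome 5 in each library, in genome order, and the summed RPKM of 19 T and NK cell markers on a linear axis (blue WT, orange JMJD1B-/-, circles replicate 1, triangles replicate 2). All 6 genes of chromosome 5 and the marker sum (147 RPKM) are highest in JMJD1B-/- replicate 1, whereas 4 of the 5 genes of chromosome 3 have both JMJD1B-/- libraries below both WT libraries.

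Isg15, a ubiquitin-like protein and a classic marker of interferon action, was barely expressed in any library. It stood at 1.06 and 1.07 RPKM in WT and 1.08 and 1.004 RPKM in JMJD1B-/- cells, on 14 and 20 and on 5 and 16 reads. The levels overlapped (−0.03 ± 0.60), and what difference could have been seen at these read numbers was not tested. Its sign turned with quantile normalization (0.34) and without JMJD1B-/- replicate 2 (0.02). Usp18, which removes ISG15 and damps the type I receptor, stood at 3.599 and 2.79 RPKM against 3.03 and 2.17 RPKM, also overlapping (−0.29 ± 0.39; unadjusted p = 0.476). Its log2 fold change was −0.04 with quantile normalization, −0.52 without JMJD1B-/- replicate 1 and −0.06 without JMJD1B-/- replicate 2. Read numbers and floors cover counting error only.

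Of the 16 other effectors, 3 (18.8%, against 6.33% of all genes) were lower at an unadjusted p under 0.05. At the same threshold 1 was higher, against 3.81% of all genes. In 8 (50%, against 22.7% of all genes) both JMJD1B-/- libraries were below both WT libraries, and the median log2 fold change was −0.50. Trim30a, a TRIM protein that restrains Toll-like receptor signalling, stood at 20.6 and 19.6 RPKM in WT and 9.88 and 9.43 RPKM in JMJD1B-/- cells. The SD of the replicates was 0.753 RPKM in WT and 0.314 RPKM in JMJD1B-/- cells. The log2 fold change was −1.05 ± 0.21 (SE; limma, unadjusted p = 0.00118, adjusted p = 0.187). Trim30a was lower at an unadjusted p under 0.05 under all 14 alternatives tried, the 4 that leave out a library included, which held for no other member with that call. Ifi30, a lysosomal thiol reductase that helps present antigens, stood at 31.4 and 26.2 RPKM against 19.4 and 10.2 RPKM (−1.02 ± 0.31; unadjusted p = 0.0125). Its log2 fold change was −0.56 without JMJD1B-/- replicate 2. It was lower in both JMJD1B-/- libraries, most in replicate 2, and without WT replicate 1 its log2 fold change was −0.89 and its unadjusted p no longer under 0.05.

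Ifi27l1, of a family of small hydrophobic proteins, stood at 7.56 and 11.8 RPKM in WT and 3.71 and 6.07 RPKM in JMJD1B-/- cells (−0.98 ± 0.35; unadjusted p = 0.026). Its p was not under 0.05 without WT replicate 2 (−0.66) or JMJD1B-/- replicate 1 (−0.63). Its neighbour Ifi27l2a stood at 0.979 and 2.35 RPKM in WT and 2.104 and 0 RPKM in JMJD1B-/- cells, from 8 and 27 reads and from 6 and 0 reads. The replicates of each genotype thus differed widely, and the 0 in JMJD1B-/- replicate 2 allows up to 0.306 RPKM at 3 reads. Its fitted log2 fold change of −1.79 ± 1.39 depends on the constant added before the logarithm, and without JMJD1B-/- replicate 2 it was 0.44. Samd9l, a brake on growth of blood progenitors, stood at 28.4 and 22.99 RPKM against 27.04 and 20.5 RPKM, overlapping (−0.12 ± 0.22), and turned positive without WT replicate 1 (0.03) or JMJD1B-/- replicate 2 (0.08).

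Isg20, an exonuclease that degrades viral RNA, ran against the other members that passed an unadjusted p of 0.05. It stood at 8.01 and 12.03 RPKM in WT and 22.3 and 16.1 RPKM in JMJD1B-/- cells, a log2 fold change of 0.94 ± 0.28 (SE; limma, unadjusted p = 0.0117, adjusted p = 0.366). Both JMJD1B-/- libraries were above both WT libraries, and without WT replicate 1 the value was 0.65 and the unadjusted p not under 0.05. Isg20l2, which only shares the name and serves ribosome making, stood at 22.2 and 26.4 RPKM against 28.8 and 34.4 RPKM, also higher in both (0.38 ± 0.20; unadjusted p = 0.102). The 5 remaining effectors with both JMJD1B-/- libraries below both WT libraries were Bst2, Parp14, Parp9, Rtp4 and Xaf1, named after their values were seen, with log2 fold changes from −0.84 for Rtp4 to −0.37 for Parp14.

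The libraries did not share the members evenly. WT replicate 2, the library with high Xist, held the highest level of 32 members and the lowest of 2. Of all genes tested, 18.4% were highest and 15.9% lowest there. JMJD1B-/- replicate 2 held the lowest level of 38 members (52.1%), against 20.3% of all genes, and JMJD1B-/- replicate 1 the lowest of 25 against 39.2% of all genes. WT replicate 1 was highest for 18 and lowest for 8 members, against 25.7% and 24.6% of all genes. JMJD1B-/- replicate 1 was highest for 16 members (21.9%), against 16.6% of all genes. JMJD1B-/- replicate 2 was highest for 7, although 39.3% of all genes were highest there.

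Markers of other blood cell types differed between genotypes and libraries as well. Monocyte-macrophage markers (14 of 18 found, Ccr2 the most abundant) summed to 209.9 and 215 RPKM in WT and 161 and 49.9 RPKM in JMJD1B-/- cells, with 9 lower at an unadjusted p under 0.05. Plasmacytoid dendritic cell markers (9 of 12, Tcf4) summed to 44.3 and 51.4 RPKM in WT and 43.2 and 26.2 RPKM in JMJD1B-/- cells, and conventional dendritic cell markers (10 of 12, Flt3) to 74.8 and 118 RPKM in WT and 90.6 and 46.6 RPKM in JMJD1B-/- cells. All 3 sums were lowest in JMJD1B-/- replicate 2. So were the B cell, granulocyte, basophil-eosinophil-mast, T and NK cell, and stroma and endothelium sums, but not the stem and progenitor or erythroid sums. Of the members, 38 were lowest there, against 20.3% of all genes. Cd209d of the plasmacytoid set was at 0 in both JMJD1B-/- libraries. B cell markers (5 of 12, Cd79b) summed to 5.41 and 5.81 RPKM in WT and 5.88 and 1.09 RPKM in JMJD1B-/- cells, with Vpreb3 at 0 in each library but JMJD1B-/- replicate 1. Granulocyte markers (12 of 15, Mpo) summed to 306 and 213 RPKM in WT and 103 and 59.8 RPKM in JMJD1B-/- cells, with Camp at 0 in WT replicate 2 and in JMJD1B-/- replicate 1. Of the 10 of these that were tested, 6 were lower and 2 higher at an unadjusted p under 0.05. Mpo, at 131 and 79.01 RPKM in WT and 21.4 and 12.1 RPKM in JMJD1B-/- cells, leads the sum. The 2 higher genes, S100a8 and S100a9, were named after their values were seen. S100a8 stood at 7.24 and 4.74 RPKM against 8.71 and 10.6 RPKM, and S100a9 at 2.79 and 1.41 RPKM against 8.01 and 10.8 RPKM. Basophil, eosinophil and mast cell markers (14 of 14, Prg2) summed to 6481 and 1738 RPKM in WT and 5562 and 1280 RPKM in JMJD1B-/- cells. This sum follows the eosinophil gene Prg2, high in replicate 1 of each genotype, while 7 of the 14 were lower at an unadjusted p under 0.05 and the median log2 fold change was −1.23. Of these 7, Prss34, named after its values were seen, fell from 246 and 258 RPKM to 30.6 and 19.9 RPKM (−3.35 ± 0.23; limma, adjusted p = 0.00637). Stroma and endothelium markers (8 of 10, Vwf) summed to 104 and 131 RPKM in WT and 55.6 and 47.5 RPKM in JMJD1B-/- cells. Erythroid markers (12 of 12, Car1) went the other way, with sums of 801 and 1147 RPKM in WT and 2138 and 3089 RPKM in JMJD1B-/- cells and 11 higher at an unadjusted p under 0.05. The part of these cell types in the members' levels was not tested.

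Irf8, left out by the rule, is the factor that directs progenitors to monocytes and dendritic cells and works with other IRFs at interferon-responsive sites. It stood at 45.9 and 55.01 RPKM in WT and 33.3 and 9.34 RPKM in JMJD1B-/- cells, lower in both and most in replicate 2 (−1.50 ± 0.51; limma, unadjusted p = 0.0203, adjusted p = 0.42). It belongs to a wider list of 96 genes of interferon signalling, sensing and response outside the name rule, of which 81 were in the table and tested. The type I interferon genes on that list, Ifnb1 and Ifna4, were not in the table. Of the 81, 10 (12.3%) were lower and 2 (2.47%) higher at an unadjusted p under 0.05, against 6.33% and 3.81% of all genes tested, with a median log2 fold change of −0.23. The 12 in either direction became 2 without WT replicate 1, 3 without WT replicate 2, 25 without JMJD1B-/- replicate 1 and 19 without JMJD1B-/- replicate 2, shares of 2.47%, 3.7%, 30.9% and 23.5% against 2.53%, 4.4%, 21.6% and 21.5% of all genes, which moved likewise. None of the 12 passed an adjusted p of 0.05 in limma.

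Of the 8 genes of the wider list with the lowest p, Irf8 is given above and the other 7 follow. Aim2, a sensor of cytosolic DNA next of kin to the Ifi200 genes, stood at 18.1 and 20.8 RPKM in WT and 7.21 and 4.95 RPKM in JMJD1B-/- cells (−1.68 ± 0.26). Tmem173, which encodes STING, stood at 7.72 and 9.53 RPKM against 3.9 and 1.13 RPKM (−1.97 ± 0.54). Sp100, a nuclear body protein, stood at 43.6 and 52.8 RPKM against 35.7 and 18.7 RPKM (−0.89 ± 0.31). In all 3 both JMJD1B-/- libraries were below both WT libraries, with JMJD1B-/- replicate 2 the lowest. Stat3, which cytokines other than interferon also activate, stood at 23.3 and 21.7 RPKM against 15.2 and 15.4 RPKM (−0.56 ± 0.19). Trim12c stood at 14.96 and 16.9 RPKM against 9.69 and 10.2 RPKM (−0.67 ± 0.22). Of the Schlafen genes, Slfn8 stood at 14.01 and 13.2 RPKM against 9.61 and 7.53 RPKM (−0.67 ± 0.24). Both JMJD1B-/- libraries were below both WT libraries for these, and for Slfn9 at 16.9 and 11.9 RPKM against 8.69 and 8.65 RPKM (−0.70 ± 0.25). The 2 higher genes, Lgals3bp and Ube2l6, were named after their values were seen. Lgals3bp, a secreted glycoprotein, stood at 14.99 and 20.6 RPKM against 24.4 and 32.04 RPKM. Ube2l6, an enzyme that conjugates ISG15, stood at 7.56 and 8.84 RPKM against 12.5 and 12.3 RPKM.

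Many members lie near each other, and neighbours did not always move together. By the gene order of GRCm38.p6, 43 of the 73 members fell into 14 groups whose genes lie within 5 genes of the next. In the Parp14-Parp9 pair and the Ifnar2-Ifnar1-Ifngr2 group, both on chromosome 16, every member had both JMJD1B-/- libraries below both WT libraries. In the chromosome 5 Oas3-Oas1 group it was 2 of 5, against 22.7% of all genes. It was 2 of 4 in the chromosome 7 Ifitm group and 1 of 3 in the chromosome 1 Ifi204-Ifi203-Ifi205 group. No member had this placement in the Igtp-Irgm2, Rsad2-Cmpk2 and Oasl2-Oasl1 pairs or in the chromosome 5 Gbp group. The other groups were mixed. Neighbouring genes can share reads, copies and regulation, so members of a group are not independent of each other.

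Many members carry at their start the letters of the interferon-stimulated response element, a site through which type I interferons act, which the rule did not use. RefSeq promoter windows (250 bases before to 50 after the start, GRCm38.p6) were found for 53 of the 73 members, as 61 windows. The search was for GAAA, then 2 bases of any kind, then GAAA, on both strands, and 28 of the 61 member windows (45.9%) held it, against 3.44% of all 32851 windows. By gene it was 27 of 53 members (50.9%) against 3.99% of 27025 genes. The shorter GAAANNGAA, which every match of the longer form contains, was in 31 of the 61 windows (50.8%) against 8.56% of all windows. The median log2 fold change was −0.34 in the 27 members with a match and −0.38 in the 26 without. Of the members at an unadjusted p under 0.05, Gbp1, Gbp3, Ifit1, Oas1a, Oas1g and Trim30a had a match, Ifi30, Ifitm1, Irf1 and Isg20 had none in the window, and Ifi27l1 was not matched to a window.

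The 150 bases before the start are shown for the 6 lower members with a match and for Isg15, whose groups overlapped on few reads. Matched letters are in capitals, and each stretch is read 5′ to 3′ on the gene's own strand. Matches on the other strand read TTTC, 2 bases, TTTC. Oas1a and Oas1g each hold 2 overlapping matches within a nearly shared stretch that ends 4 and 2 bases before the start. Ifit1 holds 2 separate matches, Gbp3 holds 2 and Isg15 holds 3 that overlap, and of the 2 matches of Trim30a 1 lies in the stretch shown. The windows are, on GRCm38.p6, chr5:120907526-120907675 (minus strand) for Oas1a, chr5:120887614-120887763 (minus strand) for Oas1g, chr19:34640739-34640888 (plus strand) for Ifit1, chr7:104465194-104465343 (minus strand) for Trim30a, chr3:142594697-142594846 (plus strand) for Gbp1 (Gbp2b in RefSeq), chr3:142559894-142560043 (plus strand) for Gbp3 and chr4:156200819-156200968 (minus strand) for Isg15. A match says only that these letters are there.
Oas1a: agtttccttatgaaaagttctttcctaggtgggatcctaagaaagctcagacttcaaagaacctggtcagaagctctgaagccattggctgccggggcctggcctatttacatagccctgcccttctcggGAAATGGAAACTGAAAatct
Oas1g: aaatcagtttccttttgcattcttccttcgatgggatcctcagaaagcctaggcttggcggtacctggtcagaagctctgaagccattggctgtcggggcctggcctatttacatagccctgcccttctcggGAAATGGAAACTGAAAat
Ifit1: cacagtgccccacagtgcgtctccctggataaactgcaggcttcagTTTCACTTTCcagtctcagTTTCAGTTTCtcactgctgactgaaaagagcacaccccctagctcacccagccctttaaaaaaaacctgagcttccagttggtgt
Trim30a: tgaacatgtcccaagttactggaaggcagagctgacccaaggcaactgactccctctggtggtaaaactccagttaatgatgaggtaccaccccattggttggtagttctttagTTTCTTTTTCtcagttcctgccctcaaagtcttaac
Gbp1: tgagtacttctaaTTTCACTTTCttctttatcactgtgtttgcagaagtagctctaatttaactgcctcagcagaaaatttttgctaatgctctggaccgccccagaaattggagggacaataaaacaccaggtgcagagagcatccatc
Gbp3: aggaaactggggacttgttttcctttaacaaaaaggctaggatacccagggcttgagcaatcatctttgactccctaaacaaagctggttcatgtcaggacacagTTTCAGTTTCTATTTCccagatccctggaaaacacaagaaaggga
Isg15: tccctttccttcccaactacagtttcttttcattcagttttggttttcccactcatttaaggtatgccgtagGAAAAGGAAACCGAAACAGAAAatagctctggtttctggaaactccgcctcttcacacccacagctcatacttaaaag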

How the data were processed

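The RNA-seq libraries of HSPCs, 2 per genotype, were used. The authors deposited their RPKM values as 1 table, with 1 added to every value, which was subtracted before use. Libraries were made from polyA RNA with a TruSeq kit, and the labels do not say which aligner, counting program or annotation served the RNA-seq. The table leaves out genes under 1 RPKM in all 4 libraries, which were not analysed here, and 42 names with more than 1 entry were averaged. Members were matched by name (73 of 11982). Members and gene lists were chosen with earlier results of these data known.

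Log2(RPKM + 0.1) of 11863 genes with a mean of at least 0.5 RPKM was fitted with limma 3.58.1 (trend, two-sided) in R 4.3.3, with Benjamini-Hochberg adjustment over all genes tested. A fold change is JMJD1B-/- over WT. The fitting code was run on simulated libraries with planted changes. Those lacked the marker differences between the real libraries, so that run does not show that calls in these data are right. The main counts over members stand beside the same share of all genes, with no test of the set. Values in every library are given for the receptors, Stat2 and each Irf member, members with an unadjusted p under 0.05, members with a mean of at least 1 RPKM and a log2 fold change of at least 1 in size, and the 2 most abundant members of each role. Outside the members they are given for Kdm3b, Irf8 and the 8 pathway genes with the lowest p, and every other name was chosen after its values were seen. Of the 39 members that the naming rule gave, 38 are described.

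Depth is not stated. It was estimated from 192 genes whose RPKM ratios between libraries are ratios of whole read numbers (up to 100 reads in WT replicate 1, within 0.002 reads), 39 of which gave 1 total with RefSeq gene lengths, against 4 for the next total. For JMJD1B-/- replicate 1 only 14% of the read numbers were odd, so its total was divided by 2. Alternatives were other pseudocounts, filters, scalings and tests, a replicate block, duplicate entries kept apart, and each library left out. Gene order, names and promoter windows came from RefSeq for GRCm38.p6. Tables and figures used Python 3.11.15, numpy 2.4.6, pandas 2.3.3, scipy 1.17.1 and matplotlib 3.10.9.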

Additional observations from a re-analysis of the deposited data

How the results depend on the processing

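Each genotype has 2 libraries. Leaving out 1 library at a time, where the lone library of a genotype is assumed to vary like the others, the members lower at an unadjusted p under 0.05 ran from 4 to 18, those higher from 0 to 10, those past an adjusted p of 0.05 in limma from 0 to 12, those whose groups did not overlap, with JMJD1B-/- below, from 37 to 52 and with JMJD1B-/- above from 5 to 17, and the wider pathway genes from 2 to 25. Of 3 libraries more genes separate than of 4, so the ranges without overlap cannot be set against 29 and 3. With JMJD1B-/- below, they were 50.7% to 71.2% of the members, against 31.9% to 49% of all genes. With JMJD1B-/- above, they were 6.85% to 23.3% of the members, against 28.8% to 46.5% of all genes. Leaving out 1 library, the members' median log2 fold change ran from −0.52 to −0.24. It was −0.16 with quantile normalization and was negative under each of the 14 alternatives. In the abundance ranges chosen after the data were seen it was negative with the authors' scaling, but 0.12 in the weakest range (0.5 to 2 RPKM) with quantile normalization. The gene-by-gene test gave 4 members lower and 0 higher (5.48% and 0%, against 4.32% and 2.93% of all genes).

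Kdm3b ran from −2.82 to −2.47 leaving out 1 library and was lower under every alternative. Its log2 fold change was −2.63 (adjusted p = 0.0614) with median-ratio scaling in limma, −2.60 (0.0991) with quantile normalization, −2.65 (0.212) in limma without a trend and −2.65 (0.608) by the gene-by-gene test, none past 0.05, and the highest adjusted p was 0.796, without WT replicate 1. With replicates of the same number taken as a block, 12 members were lower, 1 was higher and 3 (Ifi30, Ifitm1 and Trim30a) passed an adjusted p of 0.05 in limma (16.4%, 1.37% and 4.11%), against 7.7%, 4.81% and 2.16% of all genes. Over 11863 genes, same-numbered libraries deviated from their group means with r = −0.0543, a measure across genes, which are not independent replicates, so these libraries share a number and no measured pairing.

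Of 531 values of named members under the alternatives, 459 kept their direction and their side of the threshold, 31 lost the threshold, 16 gained it and 25 changed sign, the cause of which was not tested. Isg15 changed sign with quantile normalization (0.34). Leaving out 1 library, log2 fold changes that changed sign ran from −0.24 to 0.25 for Eif2ak2, −0.92 to 0.0498 for Ifi203, −4.02 to 0.44 for Ifi27l2a, −0.14 to 0.10 for Ifi47, −0.38 to 0.28 for Ifitm2, −0.22 to 0.14 for Ifitm3, −0.27 to 0.51 for Irf2bp1, −1.31 to 0.13 for Irf3, −1.67 to 0.37 for Irf4, −0.45 to 0.24 for Irf9, −0.32 to 0.13 for Irgm1, −0.0771 to 0.0193 for Isg15, −0.95 to 0.0676 for Oas1b, −0.32 to 0.0824 for Samd9l and −0.0875 to 2.57 for Zbp1. The shallow JMJD1B-/- replicate 1, where a 1 kb transcript with 3 reads stands at 0.491 RPKM, limits members under about that level, and genes absent from the table could not be followed.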
